A study of Mus musculus with 6 samples.

Results

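The genes described here encode the proteins of the cytosolic ribosome in C2C12 cells, an established mouse myoblast line. They were chosen by symbol alone: Rpl or Rps followed by a number, with the letter and number endings of named paralogs, together with Rpsa, Rplp0, Rplp1 and Rplp2. Pseudogenes and the Rps6ka and Rps6kb kinases were left out. Of 43074 symbols in the table, 83 met this rule, 51 for the large subunit and 32 for the small subunit. Of these, 80 had enough counts to be tested (48 large, 32 small), and Rpl3l, Rpl10l and Rpl39l did not.

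RNA was sequenced from 3 groups of 2 libraries each, all of genotype WT and all labelled batch 1. Day 0 cells were untreated and came from growth medium with fetal bovine serum. The other 2 groups spent 4 days in differentiation medium with horse serum, either with DMSO, the solvent, or with 1 mM 4-PBA (4-phenylbutyrate, known as a chemical chaperone and a histone deacetylase inhibitor). Medium, time and solvent therefore differ together between day 0 and the DMSO group. One cell line was used, and no label tells if the replicates are separate cultures, so p-values measure only the spread between these libraries, which may be technical.

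Each ribosome has a small subunit, which reads the mRNA, and a large subunit, which joins amino acids and carries the flexible stalk that recruits translation factors. Transcripts of most of these proteins begin with a run of pyrimidines, the TOP motif, through which mTORC1 and LARP1 control their translation and stability together. Proliferating myoblasts make ribosomes for growth, and ribosome production is known to decline when myoblasts leave the cell cycle and fuse.

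Sequence at the annotated starts is shown first, because the pyrimidine run is the feature these genes are best known to share. RefSeq start windows of build GRCm38.p6 (250 bases before to 50 after) were found for 63 of the 83 genes. Each line below runs 5′ to 3′ on the gene's own strand, 30 letters before the start and 20 after it. Capitals mark any match to CTTTCC or CTCTTT or CTTTTC or CCTTTT, motifs that can overlap one another. The first 6 genes hold such a match near the start. The last 5 hold none in the letters shown, and are among the largest (Rps2, Rplp0) and smallest (Rpl24, Rps3a1, Rpl39) falls described further on.
Rpl28, chr7:4792935-4792984, plus strand: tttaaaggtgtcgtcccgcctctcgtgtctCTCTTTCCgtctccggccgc
Rpl38, chr11:114668550-114668599, plus strand: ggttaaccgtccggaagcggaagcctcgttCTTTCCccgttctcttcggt
Rps6, chr4:86857348-86857397, minus strand: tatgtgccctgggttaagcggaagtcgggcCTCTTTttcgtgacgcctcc
Rpl18, chr7:45718041-45718090, plus strand: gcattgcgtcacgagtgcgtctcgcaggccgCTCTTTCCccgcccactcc
Rps12, chr10:23787190-23787239, minus strand: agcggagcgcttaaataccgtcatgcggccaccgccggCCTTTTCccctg
Rpl15, chr14:18270967-18271016, minus strand: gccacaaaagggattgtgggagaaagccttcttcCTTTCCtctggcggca
Rps2, chr17:24720033-24720082, plus strand: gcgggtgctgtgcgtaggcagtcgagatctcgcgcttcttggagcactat
Rplp0, chr5:115559437-115559486, plus strand: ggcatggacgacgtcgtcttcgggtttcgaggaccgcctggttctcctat
Rpl24, chr16:55966245-55966294, plus strand: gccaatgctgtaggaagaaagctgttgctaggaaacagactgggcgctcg
Rps3a1, chr3:86142649-86142698, minus strand: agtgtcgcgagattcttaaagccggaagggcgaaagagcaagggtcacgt
Rpl39, chrX:37085203-37085252, minus strand: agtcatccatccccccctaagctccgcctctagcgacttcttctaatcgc

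Within 50 letters of the start, on the gene strand, 34 of the 63 windows (54.0%) held at least 1 of these 4 pyrimidine motifs, against 12.6% of all 27025 RefSeq windows and 10.45% of the 12189 windows of tested genes. The core of the ETS family of factors, CCGGAAG, searched on both strands of the whole window, was in 25 windows (39.7%), against 9.12% of all windows and 16.4% of those of tested genes. The YY1 core AAGATGGC was in 5 windows (7.94%, against 2.88% of all and 4.30% of those of tested genes). TATAAA was in 6 (9.52%), below its share of all windows (14.2%) and above that of tested genes (7.999%). A match is a string of letters and not a shown site, and a window without one says only that these letters are absent there.

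The libraries held 47908926 to 74697397 counts. Muscle markers were present in every library: 8 myoblast and myotube markers summed to 1119 and 1121 CPM (counts scaled to a common library size by TMM) at day 0, to 6672 and 6938 in DMSO, and to 6508 and 6597 with 4-PBA. On the same scale, markers of other cell types summed to 12.5 and 12.1 at day 0, to 7.01 and 5.998 with DMSO and to 6.40 and 4.75 with 4-PBA. Of these 13 genes, 2 to 5 had no counts in a library. Sox10 had none in any library. Of the 8 muscle markers 7 were called higher with DMSO than at day 0 and 1 lower (edgeR, adjusted p under 0.05). The lower one was Myf5, with 50.4 and 49.985 CPM (counts scaled to a common library size by TMM) at day 0 and 23.1 and 22.6 with DMSO. Myod1 rose from 95.8 and 99.1 CPM to 111 and 116, so the sums do not stand for each marker. The muscle markers changed alongside the fall of ribosomal protein mRNA reported next, and their part in it was not tested. In bulk RNA a fall cannot be assigned to fewer cells of a type or to less RNA per cell.

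Ribosomal protein mRNA took a smaller share of all counts after 4 days of differentiation, whether or not 4-PBA was present. The 83 genes held 4.05% and 4.04% of counts in the day 0 libraries, 2.73% and 2.71% with DMSO, and 2.74% and 2.76% with 4-PBA. Both day 0 libraries lay above all 4 differentiated libraries, and the means were 4.04% ± 0.00391, 2.72% ± 0.0134 and 2.75% ± 0.0135 (SD, n = 2 each). With 2 libraries a group no exact permutation test of a single share can pass 0.05, so none is given. Exact binomial 95% intervals of a library were narrow (4.0403% to 4.0515% in the first day 0 library) and cover counting error only.

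Both subunits held a smaller share. Large subunit genes went from 2.43% ± 0.00252 of counts at day 0 to 1.64% ± 0.00629 with DMSO and 1.65% ± 0.00886 with 4-PBA. Small subunit genes went from 1.62% ± 0.0014 to 1.08% ± 0.00713 and 1.10% ± 0.00464 (SD, n = 2). The ratio of large to small subunit counts was 1.5005 and 1.5001 at day 0, 1.52 in both DMSO libraries, and 1.503 and 1.505 in the 4-PBA libraries, which lay nearer to day 0. The 78 mitochondrial ribosomal protein genes, which serve a separate ribosome, held 0.322% ± 0.00107, 0.238% ± 0.00312 and 0.239% ± 0.00114. Among the 100 most counted genes of a library there were 9 and 10 of the 83 at day 0, and 1 in each differentiated library.

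**Figure D1:**
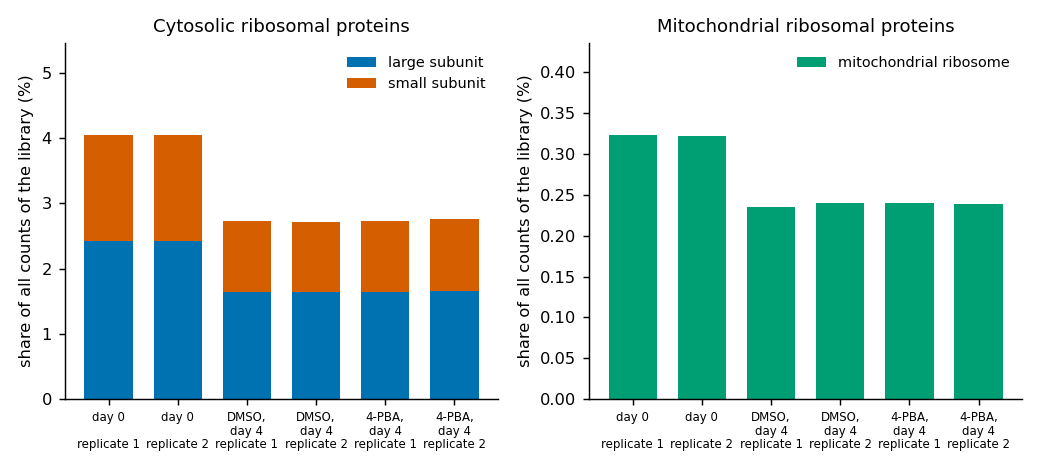
Share of all counts (percent, y axis) in each of the 6 libraries (x axis), stacked by subunit for the cytosolic ribosomal protein genes on the left and for the mitochondrial ribosomal protein genes on the right. The cytosolic bars reach 4.05% and 4.04% at day 0 and lie between 2.71% and 2.76% in the 4 differentiated libraries.

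Per length, the tested genes differed widely in level although most of their proteins are used in equal numbers. At day 0 the median was 564 RPKM (CPM per kilobase of transcript), the middle 50% of genes lay between 378 and 763 RPKM, and the range ran from 8.84 to 1570 RPKM. The median was 401 RPKM with DMSO and 396 RPKM with 4-PBA. The 5 highest mean levels over all libraries were those of Rpl8 (1172 RPKM), Rps12 (1142), Rps15 (1000.5), Rplp0 (970.1) and Rplp1 (899). At the low end stood Rps27 (8.84 RPKM at day 0), Rps15a (45.8) and Rpl10 (49.6). The length used for Rps15a, 5179 bases, is that of a long annotated transcript and lowers its RPKM, and Rps27 and Rpl10 have near-identical copies that are described at the end.

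Differentiation in DMSO was accompanied by a fall of every tested ribosomal protein gene. All 80 were lower than at day 0 at an adjusted p under 0.05 (edgeR quasi-likelihood test, Benjamini-Hochberg over 17433 genes), where 32.6% of all tested genes were called lower and 66.3% were called in either direction. In all 80 the 2 groups did not overlap, with both DMSO libraries below both day 0 libraries, as in 39.9% of all tested genes. The median log2 fold change of the 80 was -0.53, a decrease of 30.8% in CPM, and the middle 50% of genes lay between -0.59 and -0.47. Over all tested genes the median was 0.023 and the middle 50% lay between -0.43 and 0.54.

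The genes fell by similar but not equal amounts. Their log2 fold changes ran from -0.79 (Rps2) to -0.24 (Rpl24) with an SD of 0.118, while the median standard error of a single gene was 0.0303. Large and small subunit genes had medians of -0.51 and -0.54. Adjusted p-values (edgeR) went from 2.36e-23 for Rps2 to 0.0214 for Rps27, the gene with the fewest counts of the 80. The call of Rps27 was not made by DESeq2 (adjusted p = 0.05625), nor by edgeR with the length and GC trend removed (0.0894) or at an adjusted p under 0.01.

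**Figure D2:**
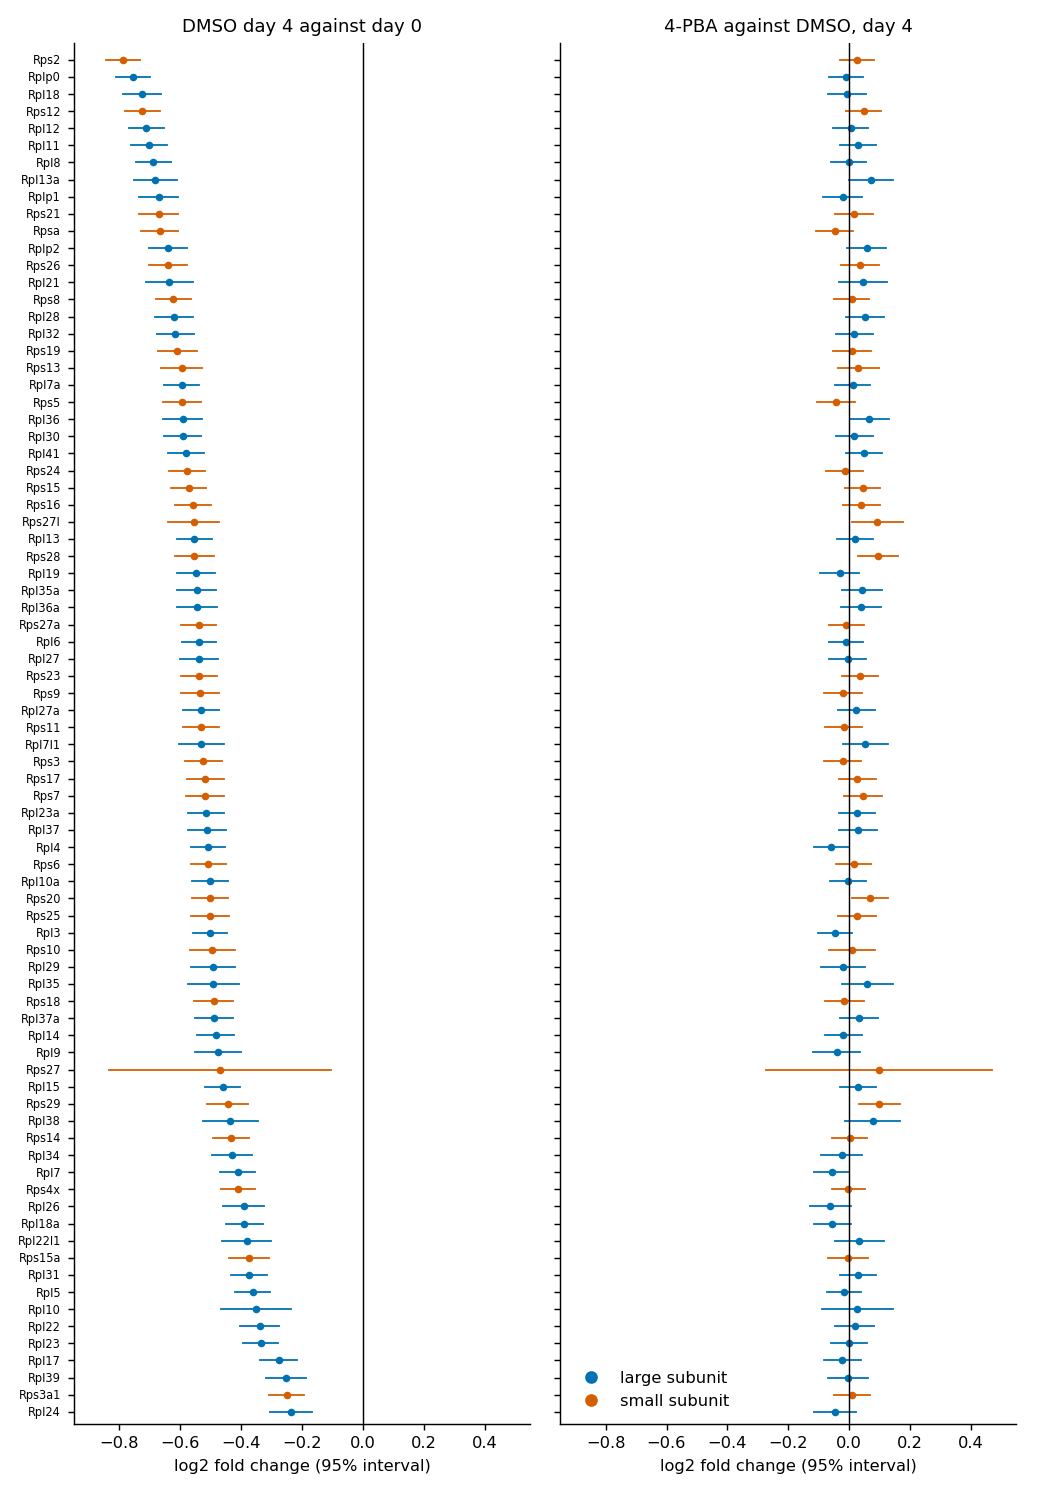
Log2 fold change with its 95% interval (x axis) of each of the 80 tested genes (y axis, ordered by the left panel), for DMSO day 4 against day 0 on the left and 4-PBA against DMSO on the right, coloured by subunit. All points on the left lie below 0, from -0.79 to -0.24, while those on the right lie between -0.06 and 0.10.

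The 6 largest falls were in genes of both subunits. Rps2, a small subunit protein near the mRNA entry, had 832 and 824 CPM at day 0, 483 and 476 in DMSO, and 486 and 490.0 in 4-PBA. Both differentiated groups lay far below day 0, with the 4-PBA libraries just above the DMSO libraries, and the fall with DMSO was -0.79 (log2, SE 0.0281, edgeR adjusted p = 2.36e-23). Rplp0, the base of the large subunit stalk, had 1801 and 1824 CPM at day 0, 1096 and 1051 in DMSO and 1063 and 1069.5 in 4-PBA. Its fold change was -0.76 (SE 0.0274, edgeR adjusted p = 3.91e-23), so the most abundant of these mRNAs by CPM at day 0 was also among those that fell most.

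Rps12, a small subunit protein of the beak, had 898 and 896 CPM at day 0, 553 and 533 in DMSO and 568 and 554 in 4-PBA, a fold change of -0.72 with DMSO (SE 0.0287). Rpl18 had 493 and 487 CPM at day 0, 303 and 289 in DMSO and 289 and 299.7 in 4-PBA (-0.73, SE 0.0310). Day 0 lay above the other 2 groups in both genes. Rpl12, which sits at the base of the stalk beside Rplp0, had 769.8 and 773 CPM at day 0, 465 and 477 in DMSO and 469 and 477 in 4-PBA (-0.71, SE 0.0284). Rpl11, which with Rpl5 and 5S RNA can bind and inhibit Mdm2, had 507 and 503 CPM at day 0, 309 and 312 in DMSO and 315 and 319 in 4-PBA (-0.70, SE 0.0291). The replicates of these genes were a few percent apart, and the groups were separated by much more than that.

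**Figure D3:**
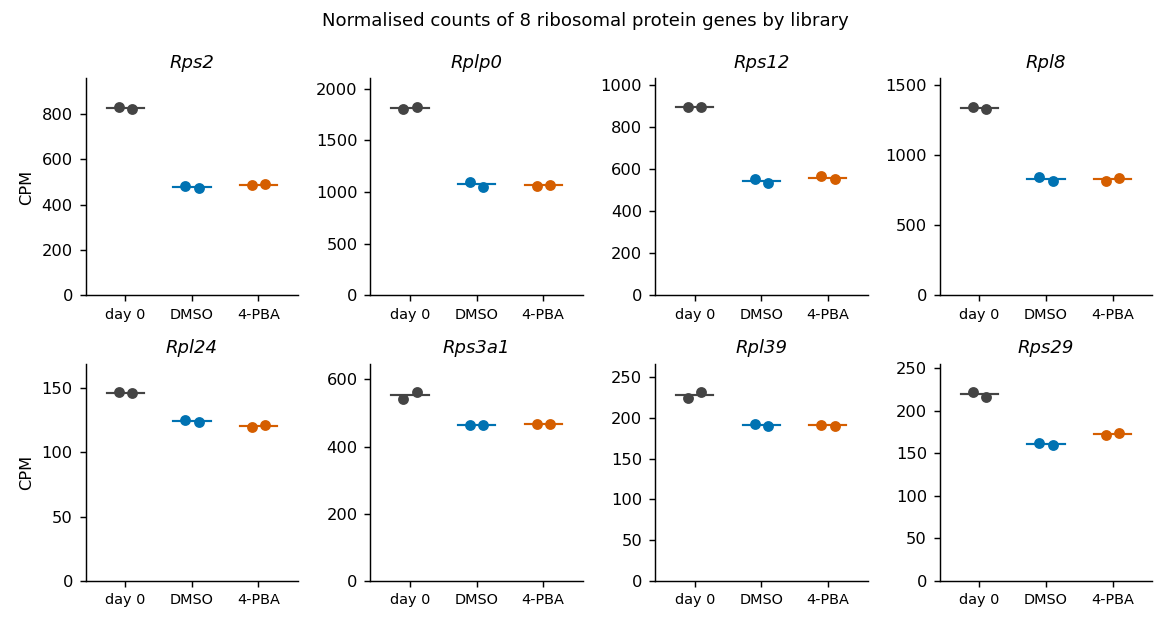
Normalised counts (CPM, y axis from 0) of 8 genes in each library, with a point per library and a line at the group mean, for day 0, DMSO and 4-PBA (x axis). Rps2, Rplp0, Rps12 and Rpl8 show falls of -0.79 to -0.69 (log2, DMSO against day 0), Rpl24, Rps3a1 and Rpl39 the smallest falls, and Rps29 the highest value of 4-PBA against DMSO.

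The smallest falls were chosen after their values were seen. Rpl24, a protein of the bridge between the subunits, had 147 and 146 CPM at day 0, 125 and 124 in DMSO, and 119.9 and 121 in 4-PBA, a log2 fold change of -0.24 with DMSO (SE 0.0341, edgeR adjusted p = 1.93e-07). Rps3a1 had 543 and 562 CPM at day 0, 464 and 465 in DMSO and 468 and 466 in 4-PBA (-0.25, SE 0.0289, edgeR adjusted p = 1.72e-09). Rpl39, a short protein of the exit tunnel, had 224 and 232 CPM at day 0, 193 and 190.4 in DMSO and 192 and 190.4 in 4-PBA (-0.25, SE 0.0319). Day 0 was above both differentiated groups in these genes too, though by less than in Rps2. Rpl17 (-0.28) and Rpl23 (-0.34), both near the exit tunnel or the subunit interface, also fell by less than the median.

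Among the stalk proteins, Rplp1 had 600.3 and 598 CPM at day 0, 389 and 364 in DMSO and 365 and 377 in 4-PBA (-0.67, SE 0.0314). Rplp2, its partner, had 278 and 280.5 CPM at day 0, 178 and 180.2 in DMSO and 185 and 188 in 4-PBA (-0.64, SE 0.0313). With Rplp0 at -0.76, all 3 stalk genes fell by more than the median of the 80. Rpsa, a small subunit protein also known as a laminin receptor precursor, had 1256 and 1263 CPM at day 0, 819 and 767 in DMSO and 753 and 781 in 4-PBA (-0.67, SE 0.0300).

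Rpl8 and Rps15, in the group with the highest level per length, had falls on either side of 0.60. Rpl8, close to the peptidyl transferase centre, went from 1346 and 1326 CPM at day 0 to 843 and 815 with DMSO and 816 and 840.5 with 4-PBA (-0.69, SE 0.0281). Rps15 went from 637 and 632 CPM to 429.5 and 424 and to 441 and 439 (-0.57, SE 0.0283).

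Of the proteins with known roles outside the ribosome or in signalling, Rps6, the substrate of the S6 kinases, had 775 and 789 CPM at day 0, 554 and 546 in DMSO and 545 and 566 in 4-PBA (-0.51, SE 0.0288). Rpl5, the partner of Rpl11, had 779 and 795 CPM at day 0, 612 and 613 in DMSO and 602 and 609 in 4-PBA (-0.36, SE 0.0278). Rpl11, which joins the same 5S particle, had -0.70, and the difference between the 2 genes was not itself tested. Rpl13a, known from translational silencing in inflammation, had 201 and 199 CPM at day 0, 121 and 128 in DMSO and 133 and 129 in 4-PBA (-0.68, SE 0.0349). Rps27a, made as a fusion with ubiquitin, went from 525 and 528 CPM to 364 and 361 with DMSO (-0.54).

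Rps19, the gene most often mutated in Diamond-Blackfan anaemia, had 362 and 354 CPM at day 0 and 237 and 232 with DMSO (-0.61). Among proteins described as uneven between ribosomes, Rpl38 had 135 and 134 CPM at day 0, 94.1 and 105 in DMSO and 102 and 108 in 4-PBA (-0.43, SE 0.0432). Rpl10a had 588 and 595 CPM at day 0 and 425 and 411 with DMSO (-0.50), and Rps25 had 323 and 329 CPM and then 230.1 and 229.9 (-0.50). These 3 fell by close to the median amount or a little less, with no overlap between day 0 and DMSO.

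Paralogs made up a small share of most pairs, and the muscle paralog of Rpl3 was close to absent. Rpl3l, which replaces Rpl3 in adult striated muscle, had 0 and 2 counts at day 0, 5 and 10 in DMSO and 8 and 4 in 4-PBA, at most 0.0192% of the pair per length. With the libraries of a group pooled, its rate with DMSO was 6.37 times that at day 0 (exact 95% interval 1.48 to 57.4, counting error only). With 4-PBA it was 0.89 times that with DMSO (0.380 to 2.04). When edgeR was run with no filter beyond 1 count, Rpl3l was called in neither differentiated group against day 0. Rpl3 itself had 983 and 1001 CPM at day 0, 711 and 691 in DMSO and 675 and 681 in 4-PBA (-0.50, SE 0.0279). Rpl10l had no counts, Rpl39l had 0 to 2 counts in a library, and Rps4l was not among the symbols counted.

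The other paralogs fell beside their partners. Rpl22l1 had 104 and 109 CPM at day 0 and 83.6 and 79.9 with DMSO (-0.38), against 249.9 and 249 and then 195 and 199.9 for Rpl22 (-0.34). It held 25.6% to 27.3% of the pair per length over the 6 libraries. Rpl7l1, a protein used in ribosome assembly, went from 141 and 142 CPM to 98.7 and 96.8 (-0.53), against 842 and 857 and then 646 and 631 for Rpl7 (-0.41), and held 6.38% to 7.01% of the pair. Rps27l, also a p53 target, went from 95.7 and 96.4 CPM to 64.1 and 66.5 (-0.56). Rps27 had only 134 to 216 counts a library, so Rps27l held 94.9% to 95.7% of that pair, a share that the near-identical copy Rps27rt touches. Rps4x, the X-linked partner in the remaining pair, went from 931 and 934 CPM to 708 and 696 (-0.41).

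The size of the fall was related to base composition among these genes. Over the 80 genes the log2 fold change of DMSO against day 0 had a Pearson correlation of -0.43 and a Spearman correlation of -0.43 with the GC content of the transcript (genes share the same libraries and are not independent). The 20 genes with the largest falls had a median GC of 52.9% and a median fold change of -0.67, and the 20 with the smallest falls a median GC of 48.3% and -0.38. Over 16469 tested genes with a GC value the correlation was 0.029 (Pearson) and 0.0079 (Spearman). After the trend with length and GC over all genes was removed, the correlation among the 80 was -0.35 and -0.34. Transcript length had a Pearson correlation of 0.016 with the log2 fold change, and log2 CPM at day 0 had -0.28. For 4-PBA against day 0 the Pearson correlations were -0.44 with GC and -0.43 with log2 CPM at day 0. The parts of GC and level were not tested.

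Genes with and without one of the listed pyrimidine motifs within 50 letters of the start had similar median fold changes. The 33 tested genes with a motif had a median of -0.52 (range -0.73 to -0.34), and the 27 without one there had -0.54 (range -0.79 to -0.24). The range without a motif reached further on both sides, and the difference was not tested. The search covers letters before and after the start and misses other pyrimidine runs, such as cttctt just after the start of Rps2. Whether genes with and without a pyrimidine run at the start itself differ was therefore not tested.

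The 4-PBA group showed the same genes lower than day 0. Of the 80, 79 were called lower (edgeR quasi-likelihood test), where 32.4% of all tested genes were, and all 80 had no overlap with day 0, where 40.1% of tested genes were so. The gene not called was Rps27 (-0.37, edgeR adjusted p = 0.0698). The median was -0.51, a decrease of 29.7%, with a range from -0.77 (Rplp0) to -0.24 (Rps3a1). The largest falls were those of Rplp0 (-0.77, SE 0.0274), Rps2 (-0.76, SE 0.0281), Rpl18 (-0.73, SE 0.0311), Rpsa (-0.72, SE 0.0301), Rpl12 (-0.71, SE 0.0284) and Rplp1 (-0.69, SE 0.0315). This comparison uses the same day 0 libraries as the previous one, so the 2 sets of values are not independent.

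Between 4-PBA and DMSO no ribosomal protein gene passed the test. With edgeR 0 of 80 were called, where 4.9% of all tested genes were, and DESeq2 and limma-voom also called 0. At an unadjusted p under 0.05 there were 8 of 80, against 16.7% of all tested genes. The median log2 fold change was 0.02, the middle 50% of genes lay between -0.01 and 0.04, and the range ran from -0.06 (Rpl26) to 0.10 (Rps29), genes named after their values were seen. The 2 groups did not overlap in 36 genes, 25 higher and 11 lower with 4-PBA, where 45.5% of all tested genes showed no overlap (23% higher, 22.5% lower).

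The intervals bound how far the groups could differ. For the 48 large subunit genes the 95% intervals lay within -0.13 to 0.17, and the widest of all was that of Rps27, from -0.27 to 0.47. Rps29, Rps28 and Rpl4 were also chosen after their values were seen. The highest value was that of Rps29, which had 222 and 216 CPM at day 0, 163 and 159 in DMSO and 171 and 174 in 4-PBA (0.10, SE 0.0325, edgeR adjusted p = 0.0708). Rps28 had 193 and 195 CPM with DMSO and 209.8 and 205 with 4-PBA (0.10, SE 0.0321, edgeR adjusted p = 0.0791). On the other side, Rpl4 had 808 and 780.3 CPM with DMSO and 752 and 772 with 4-PBA (-0.06, SE 0.0280, edgeR adjusted p = 0.274).

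Single libraries and the scaling decide whether any gene is called here. Scaling by library size alone called Rps29 (edgeR adjusted p = 0.0402) and Rps28 (0.0486), both higher. Without DMSO replicate 1, Rps29 was called (edgeR adjusted p = 0.03). Without DMSO replicate 2, Rpl38 (0.16, edgeR adjusted p = 0.00607) and Rps28 (0.0479) were called higher and Rpsa (-0.09, 0.0182) and Rpl4 (-0.08, 0.0452) lower.

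The small differences between 4-PBA and DMSO varied with protein size. Over the 80 genes, none of them called, the log2 fold change had a Pearson correlation of -0.54 and a Spearman correlation of -0.53 with log2 protein length. Over 13841 tested genes these were -0.0285 and -0.0724. The genes share the same libraries and are not independent. The 20 genes with the shortest proteins (25 to 122 amino acids) had a median of 0.04, with 17 above 0 and 3 below. The 20 with the longest (208 to 419 amino acids) had a median of -0.0029, with 8 above 0 and 12 below. Between the replicates of a group the correlation with protein length was 0.082 at day 0, -0.22 in DMSO and -0.011 in 4-PBA. The level of the gene moves with the same difference (Pearson -0.47 with CPM), as does transcript length (-0.25), and their parts were not tested.

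**Figure D4:**
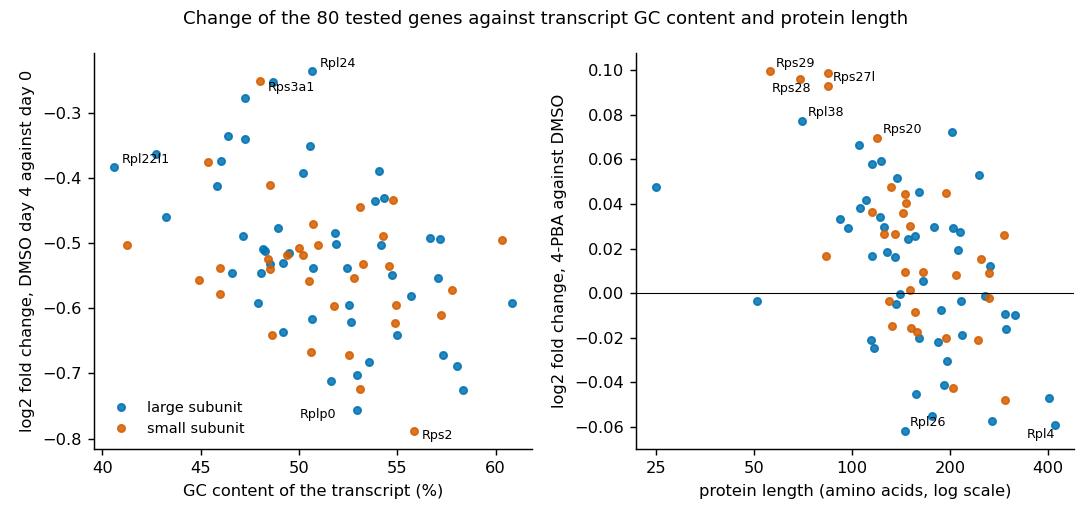
Log2 fold change (y axis) of the 80 tested genes, on the left for DMSO day 4 against day 0 by transcript GC content (percent, x axis) and on the right for 4-PBA against DMSO by protein length (amino acids, log x axis), coloured by subunit. Points fall with GC on the left (Pearson -0.43) and with protein length on the right (Pearson -0.54).

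Other genes of ribosome production fell with differentiation as well. Of 73 tested ribosome biogenesis genes 69 were called lower with DMSO than at day 0 and 1 higher (edgeR), with a median of -0.69. For this and the following lists, 32.6% of all tested genes were called lower, and 5886 of 17433 were called higher. Ncl, nucleolin of the nucleolus, had 1070 and 1091 CPM at day 0 and 510.1 and 509.5 with DMSO (-1.08, SE 0.0285). Npm1, nucleophosmin, went from 904 and 934 CPM to 390.1 and 386 (-1.24), and Fbl, the rRNA methyltransferase fibrillarin, from 105 and 107 to 52.8 and 51.9 (-1.02). Of 21 genes of RNA polymerase I and 5S transcription 20 fell and 1 rose (median -0.45), and all 8 tested host genes of small nucleolar RNAs fell (median -0.72), among them Gas5, from 113.8 and 113.9 CPM to 68.6 and 64.0 (-0.78).

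Genes that share translation or the TOP motif with the ribosomal proteins were less uniform. Of 26 tested elongation and other TOP genes 21 fell and 4 rose (median -0.39), and of 22 initiation genes 17 fell and 4 rose (median -0.39). Eef1a1, which brings tRNA to the ribosome, had 6075 and 6236 CPM at day 0 and 5319 and 5338 with DMSO (-0.21), and its muscle paralog Eef1a2 had at most 5 counts in a library and was not tested. Tpt1, a classical TOP mRNA, rose from 2077 and 2097 CPM to 2370.0 and 2512 (0.23, edgeR adjusted p = 5.66e-09). Eef2, the translocation factor, had 2979.9 and 2976 CPM and then 3174 and 3042 (0.06, edgeR adjusted p = 0.0389). Its call was lost in edgeR with DESeq2 size factors (0.0749), by library size only (0.235) and with the replicate block (0.0704). It was also lost with the DESeq2 Wald test (0.113), TMM without the ribosomal proteins, only the 4 libraries compared, and at an adjusted p under 0.01. Leaving out either day 0 library, either 4-PBA library or DMSO replicate 1 lost it too.

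Of 5 tested ribosomal proteins outside the symbol rule 4 fell (median -0.44). Fau, the fusion that yields eS30, went from 367 and 363 CPM at day 0 to 252 and 257.5 with DMSO (-0.52), and Rack1, on the head of the small subunit, from 991 and 1004 to 788 and 771 (-0.36). Of 20 regulators 8 fell and 7 rose (median 0.04), near the shares of all tested genes (5678 lower and 5886 higher of 17433). Larp1, which binds TOP mRNA, fell from 382 and 389 CPM to 279 and 273 (-0.48), Eif4ebp1, a target of mTORC1, from 116.5 and 109.5 to 79.8 and 86.2 (-0.44), and Rps6kb1, an S6 kinase, rose from 80.8 and 83.0 to 90.6 and 95.02 (0.18, edgeR adjusted p = 2.05e-04). Of the 78 mitochondrial ribosomal protein genes 62 fell and 0 rose (median -0.38).

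**Figure D5:**
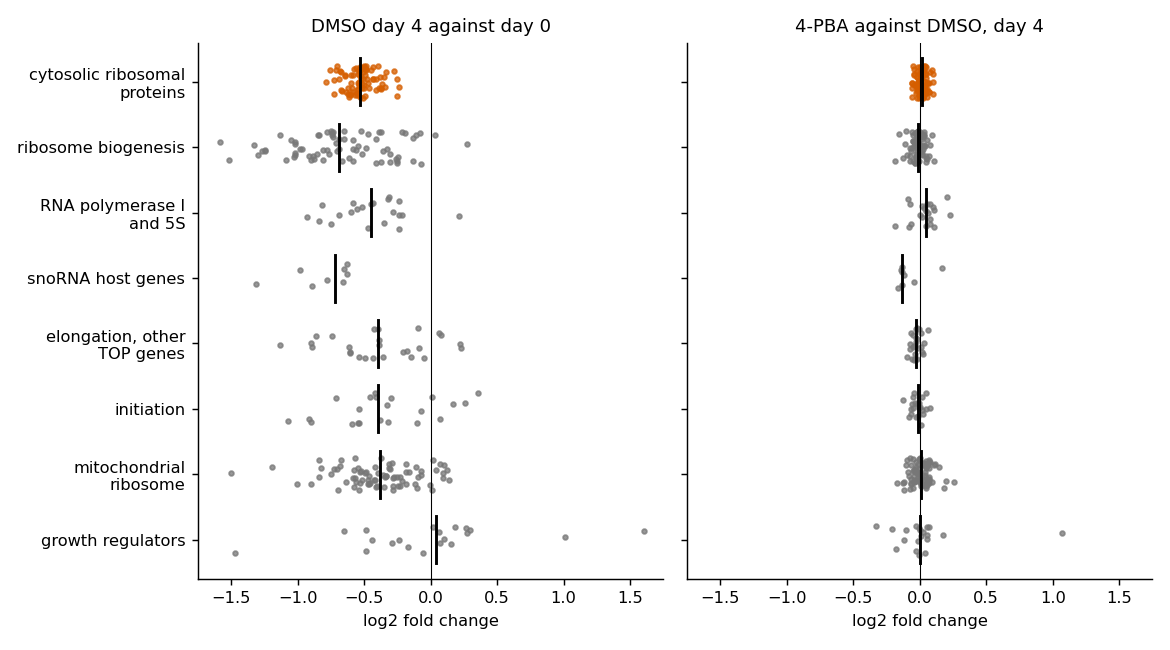
Log2 fold change (x axis) of each tested gene of the cytosolic ribosomal proteins and of the other lists (y axis), with a black line at each list's median, for DMSO day 4 against day 0 on the left and 4-PBA against DMSO on the right. The medians on the left run from -0.72 for the small nucleolar RNA host genes to 0.04 for the regulators.

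Between 4-PBA and DMSO, 9 of the 253 genes of these other lists were called (edgeR), 3 higher and 6 lower, a smaller share than the 4.9% of all tested genes. Myc, a transcription factor that drives ribosome genes, had 89.2 and 87.1 CPM at day 0, 66.4 and 59.6 in DMSO and 53.6 and 46.9 in 4-PBA. It fell with DMSO (-0.48) and was lower again with 4-PBA than with DMSO (-0.33, SE 0.0595, edgeR adjusted p = 0.00295), while no ribosomal protein gene was called. Mdm2, the ubiquitin ligase that Rpl5 and Rpl11 bind, was lower with 4-PBA (-0.18, edgeR adjusted p = 7.47e-04), as were Deptor, a partner of mTOR (-0.21, 0.00177), Riok2, of small subunit maturation (-0.19, 0.0125), Taf1d, of RNA polymerase I (-0.18, 0.0119), and Eif4e2, a cap-binding protein (-0.13, 0.0173). Mrpl18 (0.18, edgeR adjusted p = 0.0215) and Mrps36 (0.26, 0.0334) were higher. So was Rps6ka1, named after its value was seen (1.07, SE 0.326, edgeR adjusted p = 0.0494), with 0.444 and 0.458 CPM in the DMSO libraries, 0.805 and 1.095 in the 4-PBA libraries. Leaving out either 4-PBA library lowered the number of genes called in these lists, as it did over all tested genes. Riok2, Taf1d, Eif4e2, Mrpl18, Mrps36 and Rps6ka1 lost their calls when either 4-PBA library was left out, and Deptor without replicate 1. Leaving out DMSO replicate 2 raised the number called in these lists, again as it did over all tested genes.

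Near-identical sequence limits the reading of single genes. Of the 83 genes 77 had at least 1 other annotated gene with a transcript at 95% identity over 80% of the coding sequence. The median was 5 such genes, up to 57 for Rpl21, most of them pseudogenes. Some overlap the gene itself, such as Gm28037 for Rpl24, and copies outside the annotation were not searched. How reads with several matches were counted is not given in the sources used here, so counts may be split between copies. Rps27, with 134 to 216 counts a library, and Rpl10, with 1851 to 2886, are uncertain for this reason. The copy with the most counts was Rps18-ps6, with 11115 and 16572 counts at day 0 beside 13247 and 18630 for Rps18, so the level of Rps18 (-0.49 with DMSO, SE 0.0316) is uncertain too. Rps27 had 3.02 and 3.08 CPM at day 0 and 2.28 and 2.13 with DMSO (-0.47, SE 0.180, edgeR adjusted p = 0.0214), and its call was lost without DMSO replicate 2 (0.110) and without either day 0 library (0.0556 and 0.0898). With near-identical copies added it was -0.26 (edgeR adjusted p = 0.122). Rpl10 had 38.1 and 41.1 CPM at day 0 and 30.7 and 31.5 with DMSO (-0.35, SE 0.0565). Exons of 38 of the 83 overlap another annotated gene, on the same strand in 27 and on the opposite strand in 19.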

How the data were processed

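RNA from C2C12 cells was sequenced in 6 libraries made with a directional kit, per the labels' protocols. The authors deposited 1 table of raw read counts per gene symbol, with genome build GRCm39 per the submitters' processing notes. Aligner, counting program, annotation and use of strand are not given in the sources used here. The counts of all 6 libraries were fitted together in edgeR 4.0.16 (R 4.3.3) with filterByExpr, TMM scaling and the robust quasi-likelihood test, with 3 residual degrees of freedom. P-values were adjusted over 17433 tested genes by Benjamini-Hochberg, and a gene was called at an adjusted p under 0.05. CPM and RPKM were computed here. Lengths, GC content and protein lengths came from 1 transcript per gene of GENCODE M21 (GRCm38), and overlaps from all its annotated exons. Near-identical copies came from BLAST 2.17.0 of coding sequences against its transcripts. No GRCm39 coordinates are printed.

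The members and lists were chosen with earlier results of these data known. Named genes were the 6 largest changes per comparison above 5 CPM, the 5 highest per length, paralog pairs, fixed genes by role, and the 2 smallest adjusted p of each other list. One gene fixed by this rule is not reported here. Others are marked as chosen after their values were seen. Alternatives covered scaling, filters, DESeq2 1.42.0, limma 3.58.1 voom, a replicate block, length and GC trends and leaving out libraries. The fit was tested on simulated counts.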

Additional observations from a re-analysis of the deposited data

How the results depend on the processing

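Of the counts, medians and shares recomputed under the alternatives, 152 stayed close to the value reported and 16 moved, none to the other direction. The median log2 fold change of the ribosomal proteins for DMSO against day 0 was -0.5595 by library size only, -0.5141 with the stricter filter, and -0.4108 with the length and GC trend removed (-0.4109 with the replicate block added, an alternative chosen after seeing the data). For 4-PBA against day 0 these were -0.526 by library size only, -0.4042 with the trend removed and -0.4043 with the block. The stricter filter tests fewer genes. The cause of the other shifts was not tested. The share of counts outside mitochondrial genes differed from day 0 by -1.372 points with DMSO and -1.345 points with 4-PBA. Between 4-PBA and DMSO, scaling by library size only called 2 ribosomal protein genes, where 461 of all 17433 tested genes were called higher and 435 lower. Leaving out 1 library put the median log2 fold change of the ribosomal proteins between 0.002584 and 0.01794. Of the 253 genes of the other lists 3 were called at an adjusted p under 0.01. At that threshold 164 of all 17433 tested genes were called higher and 260 lower. Without 1 library, 79 to 80 ribosomal proteins were called for DMSO against day 0 and 79 for 4-PBA against day 0.

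Deviations of same-numbered libraries from their group means had correlations of -0.0279 (day 0 with DMSO), -0.00306 (day 0 with 4-PBA) and -0.0116 (DMSO with 4-PBA). Over the ribosomal proteins these were -0.129, -0.059 and -0.29. With 2 libraries a group, such values cannot tell if same-numbered libraries were handled together. With the replicate block 80, 79 and 0 ribosomal proteins were called for DMSO against day 0, 4-PBA against day 0 and 4-PBA against DMSO, with medians of -0.5316, -0.5075 and 0.01545, and 222, 219 and 8 genes of the other lists.

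Among single genes 5 values changed sign, all in genes not called for 4-PBA against day 0. Eef2 was 0.001153 with the stricter filter and between -0.03389 and 0.01218 (without 4-PBA replicate 1) when 1 library was left out. Mrps36 was 0.04235 with the length and GC trend removed, 0.04495 with the replicate block and that trend, and between -0.1703 and 0.03229 (without day 0 replicate 2) when 1 library was left out. A further 44 single-gene calls were lost and 9 gained. With 2 libraries a group, small changes between 4-PBA and DMSO may not be detectable.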
